A study of Mus musculus with 206 samples.

Results

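Of the 43 prefrontal cortex (PFC) libraries of H3K27ac, an acetyl mark of active promoters and enhancers, 41 were chosen by 1 measured value and sorted by another, the number of peaks and the presence of a peak at the promoter of Drd1. From each list the 10000 peaks with the largest −log10 p were kept, called the top list here, and a promoter counted as marked when a top-list peak lay within 1 kb of a transcription start site (TSS) of one of its protein-coding transcripts. By this rule 29 libraries had a Drd1 promoter peak and 12 did not, and every other gene was then compared between them. The SAL-SAL female library 9-2 had only 4371 peaks and was not compared, and the MOR-SAL male library 13-1, with 11306 peaks and no Drd1 promoter peak, was left out by the rule. The whole series held 174 ChIP libraries.

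The libraries came from neuronal nuclei (NeuN+, about 10000 per library) of adult wild type C57BL/6NTac mice of both sexes, sorted from tissue punches, and each animal gave 1 library per brain region. Morphine (MOR) reached the offspring through a minipump in the dam, at 10 mg/kg per day, and by 2 injections per day of 10 mg/kg on postnatal days 1 to 14, while controls received saline (SAL). All pups were raised by drug-naive surrogate dams. As adults they received lipopolysaccharide (LPS), a bacterial endotoxin, or saline, and tissue was taken 2 h later. Groups are written with the perinatal treatment first, and libraries by group, sex and the 2 numbers of the animal's label, of which the study's supplementary tables give the first as the litter. Of the 14 MOR-LPS libraries compared, 8 had the Drd1 promoter peak, as did 6 of 8 MOR-SAL, 9 of 11 SAL-LPS and 6 of 8 SAL-SAL libraries.

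Drd1 encodes the D1 dopamine receptor, which in the striatum couples to the olfactory G protein and adenylyl cyclase and raises cAMP. It is abundant in the direct-pathway projection neurons of the striatum and is also made by some neurons of the cortex, while the D2 receptor marks the striatal indirect pathway. H3K27ac typically lies in nucleosomes on both sides of an active start site, and in strongly acetylated genes it spreads over the gene body. A punch of frontal tissue can hold several neuron types, and in such bulk material fewer nuclei of a type and less of the mark per nucleus cannot be told apart.

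Some libraries stood apart, and leaving them out was chosen after seeing the data. In the SAL-SAL female library 9-4, 12 of 12 oligodendrocyte genes were marked and 3 of 13 pan-neuronal genes. In the MOR-LPS male library 14-4 these counts were 6 of 12 and 6 of 13. Neither library had a Drd1 promoter peak. Oligodendrocyte genes were marked at 3 or fewer in each of the other 39 libraries, and no gene of the microglia and endothelial lists was marked in any of the 41. The library labelled MOR-LPS female 12-2 carries peak names of animal 12-0, and its label was used. Counts of calls, the called genes and regions described in detail and several of the lists are given with and without 9-4 and 14-4. Shares of libraries for single genes of the lists are given for all 41 libraries only.

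The number of peaks called per library served as the measure of depth, since the files hold no read counts. Libraries with the Drd1 peak had 82746 ± 31189 peaks (SD, n = 29) and those without had 67719 ± 31016 (n = 12). The ratio of geometric means was 1.23, and the difference did not pass (p = 0.166, two-sided permutation test of log10 values, 100000 resamples), which does not show that depth was alike. With equal list lengths, the top lists covered 12.0 ± 4.54 Mb in libraries with the peak and 10.0 ± 5.51 Mb in those without. A mean of 3578 ± 859 genes were marked in libraries with the peak, against 3929 ± 750 in those without, and 6831 ± 602 of the 18272 deposited PFC consensus regions held a top-list peak, against 5976 ± 736. The part of these differences in breadth in the comparisons that follow was not tested.

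At Drd1 itself the libraries differed by selection, so its values are a description. The gene lies on chromosome 13 at 54051183 to 54055705 on the minus strand (mm10, ENSMUSG00000021478.6), with TSS at 54055658 and 54055705. In the 29 libraries with the peak, its rank within the full list ranged from 267 to 7968 with a median of 1925, and its −log10 p ranged from 12.8 to 48.3 with a median of 25.7. The strongest call was in the MOR-SAL female library 15-2, with a peak of 6958 bases at a −log10 p of 48.3. Of the libraries without the peak, 9 had a peak in the window in their full list, at ranks between 10805 and 57426, and 3 had none (MOR-LPS female 16-4, MOR-SAL female 7-3 and SAL-SAL female 10-3). The peaks nearest to the limit on the inside ranked 7160 (MOR-SAL male 8-0) and 7968 (MOR-SAL male 6-1). Nearest on the outside were those of MOR-SAL male 17-2, MOR-LPS female 12-2 and MOR-LPS male 6-0, which ranked 10805, 11394 and 11436. The limit thus fell in a gap between ranks 7968 and 10805.

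**Figure D1:**
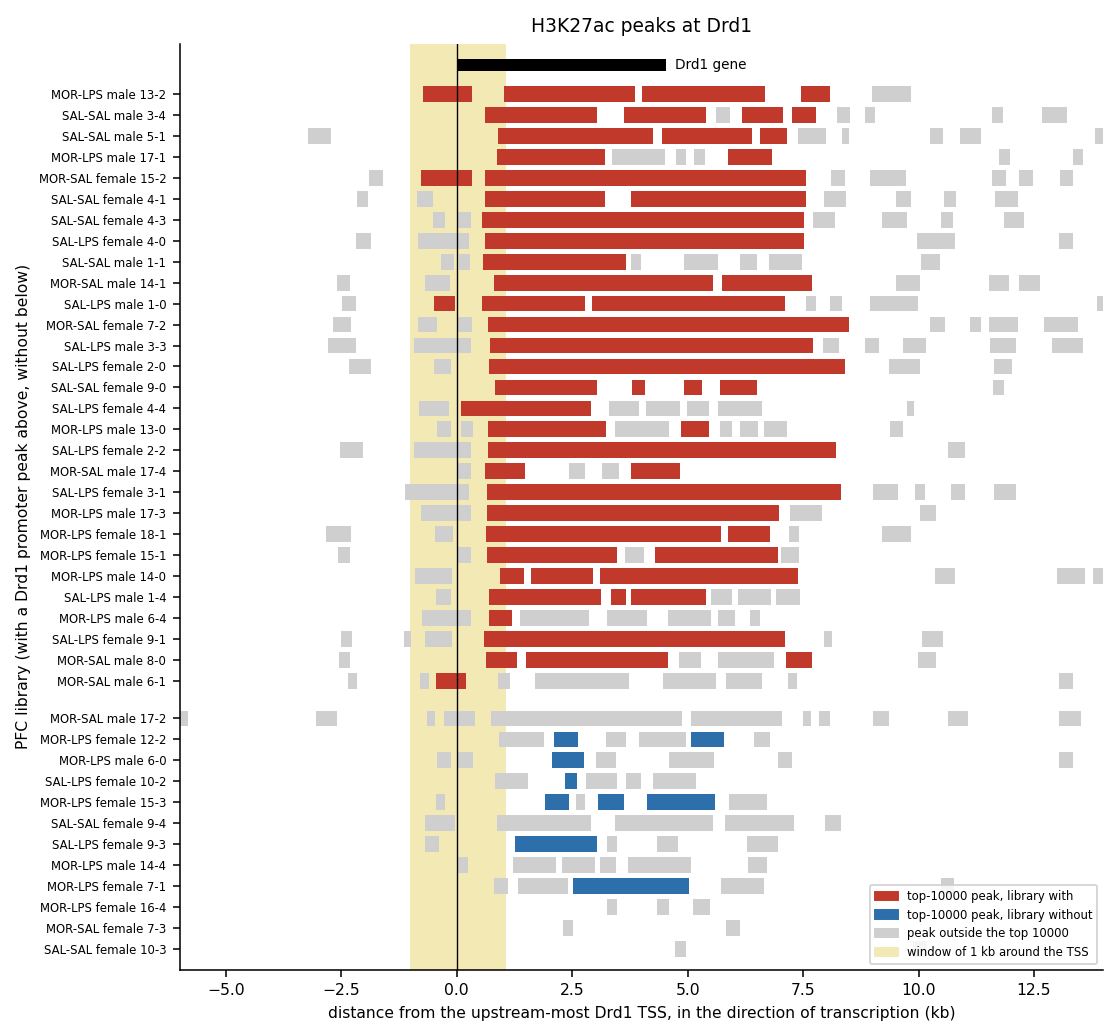
Peaks around Drd1 in each compared PFC library, the 29 with a Drd1 promoter peak above the 12 without, each set ordered by the rank of its best peak in the window; the x axis is the distance in kb from the upstream-most TSS, and grey bars are peaks outside the 10000 of highest −log10 p. In 28 of the 29 libraries with the peak the best one lay downstream of both TSS, and in 6 of the 12 without it a top-list peak lay over the gene body beyond the window.

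The best peak in the window mostly lay over the gene body, next to the start site. In 28 of the 29 libraries the best peak lay downstream of both TSS, and in 12 of them it reached the 3′ end of the gene. Its width ranged from 500 to 7801 bases with a median of 2836. In the remaining library, MOR-SAL male 6-1, the best peak covered the TSS. A top-list peak overlapped the Drd1 gene body in 6 of the 12 libraries without the promoter peak too, but more than 1 kb from the TSS. With a window of 500 bp 5 libraries had a Drd1 peak, and with 2 kb 31 had one.

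The RefSeq windows of Drd1, 250 bases before to 50 after each of its 2 listed starts (GRCm38.p6, minus strand), show this offset. The first, at chr13:54055609-54055908, holds both GENCODE TSS and was overlapped by a top-list peak in 5 of the 29 libraries with the Drd1 peak. The second, at chr13:54054731-54055030, belongs to a start inside the gene and was overlapped in 27 of 29. By the rule neither was overlapped in the 12 libraries without. The sequences are written 5′ to 3′ with the letters GGGCGG, the GC box, in capitals on either strand:
Drd1 promoter: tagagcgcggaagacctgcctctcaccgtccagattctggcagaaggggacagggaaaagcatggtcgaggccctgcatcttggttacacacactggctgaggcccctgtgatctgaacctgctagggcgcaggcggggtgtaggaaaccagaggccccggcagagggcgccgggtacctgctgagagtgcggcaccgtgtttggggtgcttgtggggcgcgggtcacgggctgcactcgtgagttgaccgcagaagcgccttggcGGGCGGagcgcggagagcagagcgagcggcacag
Drd1 internal start: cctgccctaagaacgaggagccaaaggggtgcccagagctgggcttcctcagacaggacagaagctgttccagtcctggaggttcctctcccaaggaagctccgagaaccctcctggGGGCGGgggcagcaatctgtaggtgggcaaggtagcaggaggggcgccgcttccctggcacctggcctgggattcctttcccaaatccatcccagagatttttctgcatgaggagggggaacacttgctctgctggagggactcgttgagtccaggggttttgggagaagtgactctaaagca
The first window held 23 CpG dinucleotides and the second 6, beside a median of 7 over the 32817 RefSeq windows of this length. GGGCGG occurred in both, and in 35.6% of all windows. Neither held TGACG, the core of the cAMP response element, on either strand, a motif found in 20.8% of all windows.

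Whether the Drd1 peak followed the labels was compared first. The peak was present in 14 of 22 libraries from mice given perinatal morphine and in 15 of 19 from those given saline, a difference of −15.3 percentage points (adjusted p = 0.487, two-sided Fisher's exact test, Benjamini-Hochberg over 3 labels). It was present in 17 of 25 libraries after LPS and in 12 of 16 after adult saline (−7.00 points, adjusted p = 0.734). It was present in 13 of 22 female and 16 of 19 male libraries (−25.1 points, adjusted p = 0.293). None of the 3 differences passed the test.

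Litter numbers were uneven. The 41 libraries carried 17 litter numbers, of which 12 stood on more than 1 library. In 5 of these 12 every library had the Drd1 peak (4 of 4 with the number 4 and 3 of 3 with the numbers 1 and 3), in 1 none had it (number 10, 2 libraries), and 6 held both kinds. Over the whole series 17 of the 18 litter numbers stood on animals of 1 sex, and whether a number marks a whole litter was not tested. Each number stood on 1 perinatal treatment, so number and perinatal treatment cannot be told apart. By the flow cell written in the peak names, the peak was present in 6 of 7 and 6 of 9 libraries of the 2 named flow cells, and in 17 of 25 libraries whose names give none.

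The genes of striatal projection neurons were marked in a larger mean share of libraries with the Drd1 peak, while no single gene of the list passed the test. The list holds 22 genes shared by both classes of these neurons, and it was chosen with earlier results of these data known. A mean of 63.6% ± 16.3 of the list was marked in libraries with the peak (SD, n = 29, range 31.8 to 90.9%), against 37.5% ± 13.6 in those without (n = 12, range 18.2 to 63.6%), so the ranges overlapped. The lowest libraries with the peak were MOR-LPS male 6-4 and MOR-SAL male 6-1, both at 31.8%. The highest library without it was MOR-SAL male 17-2 at 63.6%, the one whose Drd1 peak ranked just outside the limit. Of the 22 genes, 19 were marked in a larger share of libraries with the peak, and 2 in a smaller share, where 39.2% of the 10320 genes marked in at least 1 library had a larger share and 59.1% a smaller one. The difference reached 25 points upward for 11 genes and downward for 0, where over the 10320 genes marked in at least 1 library 4.55% were at least 25 points higher and 7.81% at least 25 points lower. The median difference was 24.7 points over the list and −4.60 points over those 10320 genes.

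**Figure D2:**
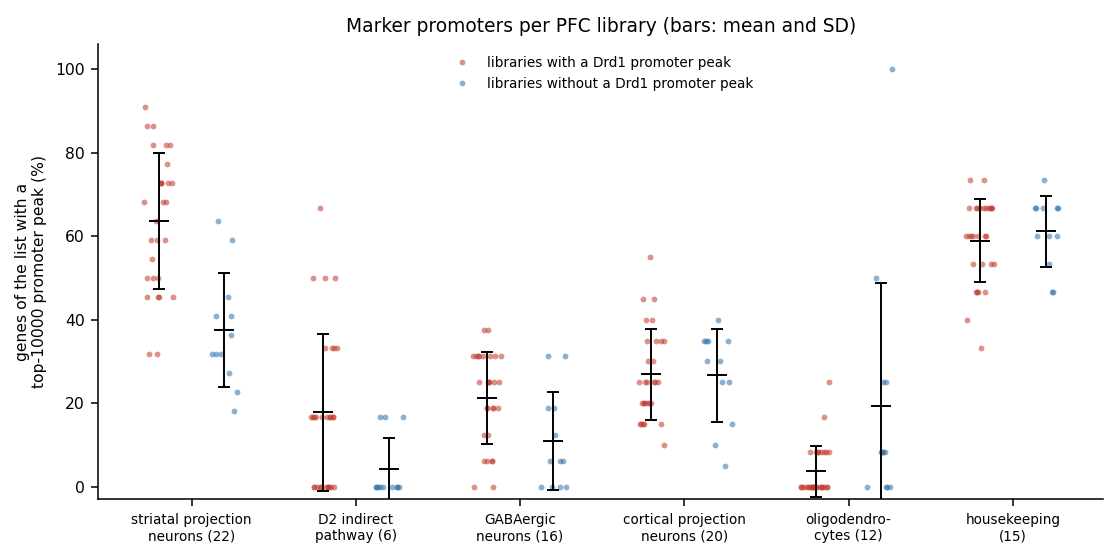
Share of each marker list (number of genes in brackets) with a top-list promoter peak, per PFC library, libraries with a Drd1 promoter peak (n = 29) left of those without (n = 12); bars show mean and SD. Striatal projection neuron genes averaged 63.6% against 37.5%, cortical projection neuron genes 26.9% against 26.7%, and the oligodendrocyte point at 100% is SAL-SAL female 9-4.

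The list holds several genes of the signalling chain downstream of the D1 receptor. Pde1b, a calmodulin-dependent phosphodiesterase that breaks down cyclic nucleotides, was marked in 27 of 29 libraries with the Drd1 peak and in 4 of 12 without (unadjusted p = 0.000185, adjusted p = 0.163, Fisher's exact test). Gnal, the olfactory G protein alpha subunit that couples the D1 receptor to adenylyl cyclase in the striatum, was marked in 26 of 29 and 4 of 12 (adjusted p = 0.204). Ppp1r1b encodes DARPP-32, the protein phosphatase inhibitor phosphorylated on dopamine signalling, and was marked in 16 of 29 and 2 of 12 (adjusted p = 0.585). Rgs9, a striatal regulator of G protein signalling, was marked in 21 of 29 and 4 of 12 (adjusted p = 0.585). Adcy5, the main striatal adenylyl cyclase, was marked in 8 of 29 and 1 of 12. None of these passed over the 4408 genes tested. The whole list of 22 dopamine and cAMP signalling genes, which shares members with the striatal list, averaged 53.0% ± 7.90 marked in libraries with the peak and 41.3% ± 9.59 in those without, or 44.1% ± 7.44 in the 10 left without 9-4 and 14-4. Of its genes 12 were marked in a larger share of libraries with the peak and 3 in a smaller share: Creb1, the cAMP-responsive transcription factor, in 8 of 29 and 7 of 12, Gnb1, a G protein beta subunit, in 11 and 7, and Ptpn5 in 26 and 11.

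Other members included transcription factors and small G proteins. Foxp2, a forkhead factor of projection neurons, was marked in 14 of 29 libraries with the Drd1 peak and 1 of 12 without. Rarb, a retinoic acid receptor needed for striatal development, was marked in 15 and 2, and Rasd2, the small G protein Rhes, in 15 and 1. Syndig1l, a striatum-enriched membrane protein, was marked in 9 and 0. Meis2, which is also made widely in the forebrain, had 27 of 29 and 12 of 12, and Arpp21, marked in all 41 libraries, did not separate them. Of the list, 8 of the 12 list genes that entered the test had an unadjusted p under 0.05 upward and 0 downward, where 3.72% and 4.04% of all tested genes did so.

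**Figure D3:**
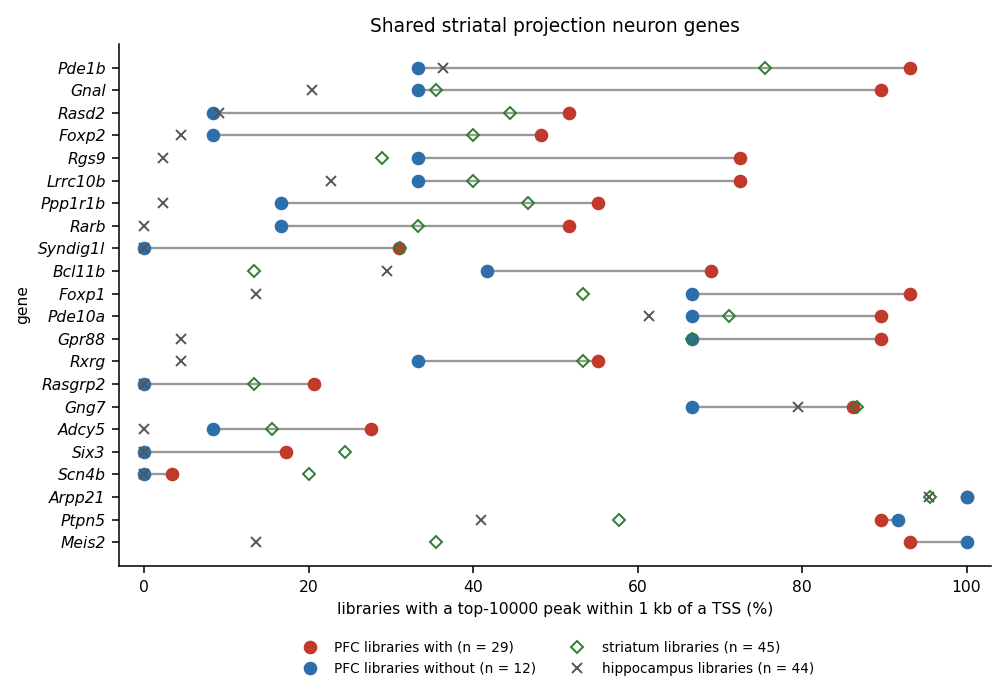
Each of the 22 shared striatal projection neuron genes, with the percentage of libraries in which its promoter was marked: PFC libraries with a Drd1 promoter peak (red), PFC libraries without (blue), striatum (diamonds) and hippocampus (crosses). Pde1b, at the top, was marked in 93.1% of libraries with the Drd1 peak and 33.3% of those without.

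Genes that divide the 2 classes of striatal neurons were rarely marked. Of the 7 direct-pathway genes other than Drd1, Tac1 and Chrm4 were each marked in 1 library with the Drd1 peak and 0 without, Eya1 in 5 of 29 and 5 of 12, and Pdyn, Isl1, Ebf1 and Zfp521 in none. Of the indirect-pathway genes, Adora2a, an adenosine receptor, was marked in 7 of 29 and 0 of 12, Gpr6 in 10 and 1, Penk, the enkephalin precursor, in 8 and 2, and Drd2 in 2 and 0. Grik3 was marked in 3 and 0, and Sp9 in 1 and 0. The 6 indirect-pathway genes found were thus all marked in a larger share of libraries with the Drd1 promoter peak (17.8% ± 18.9 of the list, against 4.17% ± 7.54). Over all genes marked in at least 1 library 39.2% had a larger share. Only 2 of the 6, Penk and Gpr6, were marked often enough to be tested, and neither passed.

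GABA synthesis genes had larger shares in libraries with the Drd1 peak, and the cortical list had similar means over all 41 libraries. Gad1 and Gad2, the glutamate decarboxylases of inhibitory neurons, were marked in 22 and 18 of 29 libraries with the Drd1 peak, against 4 and 2 of 12 without (adjusted p = 0.482 each, Fisher's exact test). The interneuron gene Lamp5 was marked in 22 and 4 (adjusted p = 0.482), and the homeobox genes Dlx5 in 12 and 1 and Dlx6 in 21 and 7. Slc32a1 was marked in 4 and 1, and Dlx1 and Adarb2 each in 0 and 1. Of the other interneuron genes, Sst, Pvalb, Vip, Npy, Lhx6 and Maf were marked in none of the 41 libraries. Over the 16 genes of the list the mean was 21.3% ± 11.0 with the peak and 10.9% ± 11.7 without, or 13.1% ± 11.6 without 9-4 and 14-4. The 20 cortical projection neuron genes averaged 26.9% ± 11.0 marked in libraries with the peak and 26.7% ± 11.1 in those without. In the 10 libraries left without the peak after 9-4 and 14-4 were removed the mean was 30% ± 8.50. Of the cortical genes 7 were then marked in a larger share of libraries with the peak and 8 in a smaller share. Within that list Mef2c was marked in 29 of 29 and 9 of 12, and Tbr1, a factor of glutamatergic cortical neurons, in 11 of 29 and 9 of 12 (adjusted p = 0.585). Both kinds of PFC library lacked several cortical genes: Emx1, Emx2, Lhx2 and Neurod1 were marked in 0 of 41.

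The remaining lists went both ways. Housekeeping genes averaged 58.9% ± 9.93 marked in libraries with the Drd1 peak and 61.1% ± 8.45 in those without, pan-neuronal genes 68.4% ± 13.4 and 57.7% ± 20.1, and immediate early genes 53.7% ± 16.3 and 57.8% ± 14.1. Of the 13 pan-neuronal genes 9 had a larger share with the peak and 2 a smaller one. Their median difference was 10.9 points, beside −4.60 over all genes marked in at least 1 library. Without 9-4 and 14-4 the pan-neuronal mean was 62.3% ± 17.9 in the 10 libraries left without the peak. Egr3, an immediate early gene, was marked in 10 of 29 and 0 of 12. Of 15 inflammatory genes, 3 were marked in a larger share of libraries with the peak and 8 in a smaller share, none with a passing test. Of the opioid genes, Oprm1, the mu receptor, was marked in 4 and 0, Oprl1 in 12 and 7, and Oprd1, Oprk1, Pdyn, Pomc and Pnoc in none of the 41. Oligodendrocyte genes averaged 3.74% ± 6.13 and 19.4% ± 29.4, with all 12 genes marked in a smaller share of libraries with the peak, and their part in the other differences was not tested. Without 9-4 and 14-4 the mean of the 10 libraries left without the peak was 8.33% ± 9.62, with 1 gene marked in a larger and 4 in a smaller share of libraries with the peak and 7 marked in none. Without SAL-SAL female 9-4 and MOR-LPS male 14-4 the striatal projection neuron share was 63.6% in libraries with the peak and 40.9% in the 10 left without it, and with MOR-SAL male 13-1 kept in, 63.6% and 35.3%.

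The difference in striatal genes was also present within parts of the series, but not in all. Within females the share was 68.5% ± 13.2 with the Drd1 peak (n = 13) and 35.9% ± 11.7 without (n = 9), and within males 59.7% ± 17.9 (n = 16) and 42.4% ± 20.5 (n = 3). By group it was 54.5% and 32.6% in MOR-LPS, 63.6% and 54.5% in MOR-SAL, 63.1% and 47.7% in SAL-LPS, and 76.5% and 25% in SAL-SAL libraries, with only 2 libraries without the peak in each of the last 3 groups. Libraries whose peak names give no flow cell had 66.3% ± 17.0 (n = 17) and 37.5% ± 11.6 (n = 8), and those of 1 flow cell 62.1% ± 8.94 (n = 6) and 28.8% ± 9.46 (n = 3). In the other flow cell the order was turned, with 57.6% ± 20.5 (n = 6) with the peak and 63.6% in the single library without it, MOR-SAL male 17-2. Libraries 9-4 and 14-4 are among those without the peak here. SAL-SAL female 9-4 is in the flow cell with 28.8%, and MOR-LPS male 14-4 is among those with no flow cell in the name. Shares within these parts are not given without the 2 libraries.

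Over all other genes, 4408 were marked in 20% to 80% of the 41 libraries and were tested. None was called higher in libraries with the Drd1 peak at an adjusted p under 0.05, and 2 were called lower, 0.0454% of those tested. Unadjusted, 164 genes were higher and 178 lower at p under 0.05, 3.72% and 4.04%. The 2 called genes were Cpeb4, a cytoplasmic polyadenylation element-binding protein that controls mRNA translation, and Mxd4, a MAX dimerization protein that opposes MYC. Each was marked in 1 of 29 libraries with the peak and in 9 of 12 without (−71.6 points, adjusted p = 0.0127, Fisher's exact test).

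These calls depended on few libraries, and without MOR-LPS 6-4, MOR-SAL 17-2 or SAL-LPS 10-2 alone 4 genes were called. Without SAL-SAL female 9-4 and MOR-LPS male 14-4, 0 genes were called (121 higher and 117 lower at an unadjusted p under 0.05, Fisher's exact test), and Cpeb4 and Mxd4 had adjusted p-values of 0.132. Stratified by sex or by the number of peaks, both genes had adjusted p-values of 0.0575 and 0.0592, and with ties at the 10000th peak taken in another order 0 genes were called, with a lowest adjusted p of 0.185.

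At Cpeb4 (chromosome 11, plus strand, TSS at 31872211, 31872226 and 31873275) a peak 1 to 3 kb upstream was in the top list of 27 of 29 libraries with the Drd1 peak and 12 of 12 without, so that the difference lay in peaks within 1 kb of a TSS, some upstream of the first TSS, some over a TSS and some inside the gene. At Mxd4 (chromosome 5, minus strand, TSS at 34187710 and 34187720) the peak lay just upstream of the start. The 300 bases that most of the libraries without the Drd1 peak covered, chr5:34188060-34188359 (minus strand, GRCm38.p6), were overlapped in 1 of 29 libraries with it and 9 of 12 without. They are shown with GGGCGG in capitals on either strand:
Mxd4: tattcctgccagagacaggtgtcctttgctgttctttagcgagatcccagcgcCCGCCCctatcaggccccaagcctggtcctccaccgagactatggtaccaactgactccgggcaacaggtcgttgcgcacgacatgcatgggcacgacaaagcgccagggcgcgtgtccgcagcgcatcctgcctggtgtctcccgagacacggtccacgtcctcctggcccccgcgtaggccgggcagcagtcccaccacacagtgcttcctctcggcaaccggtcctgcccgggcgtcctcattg
This stretch held 24 CpG dinucleotides.

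A pair of promoters of the dopamine pathway are shown in the same way, at the 300 bases within 1 kb of a TSS that most libraries with the Drd1 peak covered (plus strand, GRCm38.p6). For Pde1b these were chr15:103503827-103504126, overlapped in 21 of 29 libraries with the Drd1 peak and 3 of 12 without, with a centre 700 bases downstream of the nearest TSS. For Ppp1r1b they were chr11:98349646-98349945, overlapped in 11 and 1, with a centre 200 bases upstream of the nearest TSS:
Pde1b: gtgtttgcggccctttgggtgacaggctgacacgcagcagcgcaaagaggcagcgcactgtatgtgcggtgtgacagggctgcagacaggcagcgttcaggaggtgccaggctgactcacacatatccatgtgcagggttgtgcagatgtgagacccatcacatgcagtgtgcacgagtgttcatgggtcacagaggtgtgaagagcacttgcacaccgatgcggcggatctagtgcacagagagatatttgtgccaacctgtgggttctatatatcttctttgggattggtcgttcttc
Ppp1r1b: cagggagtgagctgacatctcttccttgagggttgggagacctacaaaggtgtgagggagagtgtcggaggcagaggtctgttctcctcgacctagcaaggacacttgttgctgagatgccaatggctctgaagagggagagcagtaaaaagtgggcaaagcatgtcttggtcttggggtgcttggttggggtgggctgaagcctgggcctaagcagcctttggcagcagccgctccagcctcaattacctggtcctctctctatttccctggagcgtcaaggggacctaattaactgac
Neither stretch held the GC box, and TGACG occurred once in that of Ppp1r1b on one strand and not in that of Pde1b.

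When the place of the peak in the full list was used instead of its presence in the top list, other genes passed. For each gene the percentile of its best −log10 p in the full list was compared by limma with sex as a term. A library with no peak at the gene in its full list was given the lowest possible value. The differences in percentile points thus mix presence and strength of the peak, in full lists of unequal length. This called 31 of the 4408 genes, all higher in libraries with the Drd1 peak, and neither Cpeb4 (adjusted p = 0.759) nor Mxd4 (adjusted p = 0.726) was among them. With the number of peaks as a further term 23 were called, 22 of them higher, and 22 genes were called by both fits. The 4408 genes were kept by their top-list share over all 41 libraries, 29 of which had the Drd1 peak. A gene marked only in those 29 could thus enter more easily than one marked only in the other 12. The part of this in the direction of the calls was not tested. Ppp1r1b was 38.4 percentile points higher (limma adjusted p = 0.0181), Gad2 34.5 points (0.0408) and Egr3 49.4 points (0.0196), and these 3 passed in both fits. The largest difference called, 62.0 points, was at a gene in none of the lists. Of the 12 shared striatal projection neuron genes tested, all were higher but only Ppp1r1b passed in either fit. With sex as a term, Pde1b (limma adjusted p = 0.132), Gnal (0.138), Rgs9 (0.140) and Foxp2 (0.234) did not pass. Htr1b, the serotonin 1B receptor, which is carried by striatal projection neurons, was 33.6 points higher (0.0169), and Camk4, a calcium/calmodulin-dependent kinase, 31.1 points (0.00979). Htr1b was marked in the top list of 23 of 29 libraries with the Drd1 peak and 3 of 12 without, and Camk4 in 26 and 3. Without 9-4 and 14-4 limma called 34 genes, 26 of them among the 31, or 18 with the number of peaks as a term. Ppp1r1b (limma adjusted p = 0.00870 and 0.0194), Gad2, Htr1b and Camk4 passed in both of these fits, and Egr3 in neither (0.0585 and 0.199).

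Beyond promoters, the deposited PFC consensus regions gave more calls. Of the 18272 regions, 8666 held a top-list peak in 20% to 80% of libraries, and 1 region at Drd1 was left out. By Fisher's exact test 261 regions (3.01%) were called higher in libraries with the Drd1 peak and 35 (0.404%) lower, over a median difference of 9.48 points for all regions tested. Unadjusted, 17.5% of regions were higher and 3.13% lower at p under 0.05. Per the paper, a peak entered the consensus set by the share of all samples that held it, and most compared libraries had the Drd1 peak. A region marked mainly in the 12 libraries without it was thus less likely to be in the set or to reach the 20% needed for a test. The part of this in the excess of regions called higher was not tested. The regions called higher were mostly away from promoters: 28 of the 261 (10.7%) lay within 1 kb of a TSS, against 38.7% of all regions tested and 21 of the 35 called lower. Of the 261, 126 lay between genes and 71 in introns.

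The number of called regions was less stable than the differences themselves. Without SAL-SAL female 9-4 and MOR-LPS male 14-4, 0 of 9129 regions were called, with 983 higher and 252 lower at an unadjusted p under 0.05 (Fisher's exact test) and a lowest adjusted p of 0.0666. Any of 17 libraries with the Drd1 peak, left out alone, took it to between 105 and 119 (MOR-LPS 13-0, 14-0 and 17-1, MOR-SAL 7-2, 8-0, 14-1 and 15-2, SAL-LPS 1-0, 2-0, 2-2, 3-3 and 4-0, and SAL-SAL 3-4, 4-1, 4-3, 5-1 and 9-0). Of those without the peak, left out alone, 9-4 and MOR-LPS female 16-4 each took the count to 10, 14-4 and MOR-SAL female 7-3 to 63, SAL-SAL female 10-3 to 68, SAL-LPS female 9-3 to 73, MOR-LPS female 7-1 to 76, MOR-LPS female 12-2 to 153 and SAL-LPS female 10-2 to 160. Stratified by treatment group 8 regions were called, and with MOR-SAL male 13-1 kept in 495, of which 472 were higher. With the litter number as a replicate block 0 genes and 0 regions were called by Fisher's exact test (at an unadjusted p under 0.05, 53 genes higher and 35 lower, and 261 regions higher and 68 lower).

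The distal regions called higher with the largest difference were marked in 21 to 24 of the 29 libraries with the Drd1 peak and in at most 1 without. Inside Tenm4, which encodes a teneurin, a transmembrane protein of synaptic adhesion, a region at chr7:96498789-96504916 that overlaps an exon was marked in 22 of 29 and 0 of 12 (adjusted p = 0.0079, Fisher's exact test). The same counts were found in an intron of Ttll11, a tubulin polyglutamylase gene, at chr2:35841918-35849484, and between genes at chr4:12474073-12477671, where the nearest TSS, of Fam92a, was 302058 bases away. A region between genes at chr1:158190970-158194370, 161956 bases from Brinp2, and one in an intron of Rasgef1a, a Ras guanine nucleotide exchange factor gene, at chr6:118042710-118049076, were each marked in 24 of 29 and 1 of 12 (adjusted p = 0.0135). A region 66794 bases from Mrtfb at chr16:13425215-13431802 was marked in 21 of 29 and 0 of 12 (adjusted p = 0.0138). Without 9-4 and 14-4 all 6 had an adjusted p of 0.0666, at differences between 72.4 and 75.9 points.

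The 300 bases of the Tenm4 region that most libraries with the Drd1 peak covered, chr7:96500839-96501138 (plus strand, GRCm38.p6), were overlapped in 21 of 29 libraries with it and 0 of 12 without, and held 4 CpG dinucleotides and neither the GC box nor TGACG on either strand:
Tenm4 region: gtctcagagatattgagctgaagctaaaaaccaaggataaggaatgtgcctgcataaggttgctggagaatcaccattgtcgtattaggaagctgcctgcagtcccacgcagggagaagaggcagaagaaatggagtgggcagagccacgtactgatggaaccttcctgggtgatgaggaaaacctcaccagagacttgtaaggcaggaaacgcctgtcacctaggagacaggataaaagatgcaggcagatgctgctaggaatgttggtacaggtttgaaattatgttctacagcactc
As a distal stretch it differs in base composition from the first Drd1 window, at 48.3% G and C against 65.7%.

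The distal regions called lower with the largest difference included 2 at Zeb2, a zinc finger factor of interneuron and glial development. One in an intron at chr2:45064986-45091254 was marked in 6 of 29 libraries with the Drd1 peak and 11 of 12 without (adjusted p = 0.0200, Fisher's exact test), and one at chr2:45095852-45102727 that overlaps an exon in 6 and 10 (adjusted p = 0.0290). A region inside Tcf4, which encodes a basic helix-loop-helix factor, and one inside Micu2, a regulator of mitochondrial calcium uptake, at chr14:57919898-57923583, were each marked in 1 of 29 and 8 of 12 (adjusted p = 0.0200). One between genes 82717 bases from Zfp366, at chr13:99095746-99102106, was marked in 5 and 10 (adjusted p = 0.0258), and one at an exon of Wdfy2, at chr14:62875474-62885987, in 6 and 10 (adjusted p = 0.0290). A region at the promoter of Ier2, an immediate early gene, at chr8:84662325-84666294, was marked in 1 of 29 and 9 of 12 (adjusted p = 0.0079). Without 9-4 and 14-4 none of these passed. The 2 Zeb2 regions were then marked in 9 and 8 of the 10 libraries left without the Drd1 peak (adjusted p = 0.0884 and 0.123), the Zfp366 and Wdfy2 regions in 8 each (0.0971 and 0.123) and the Ier2 region in 7 (0.0666). The Tcf4 and Micu2 regions, in 6 each, were then marked in too few libraries to be tested.

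Regions assigned to striatal genes were among those called higher. Of 94 tested regions whose nearest TSS within 100 kb belonged to a shared striatal projection neuron gene, 8 were called higher and 0 lower. Over all regions tested 3.01% were called higher and 0.404% lower. The median difference was 33.3 points for the 94 regions beside 9.48 points over all regions. The 8 belonged to Foxp1, Gnal, Lrrc10b, Pde1b, Ptpn5, Rarb, Rasd2 and Rgs9. In an intron of Ptpn5, which encodes the striatal-enriched tyrosine phosphatase STEP, a region at chr7:47093250-47102007 was marked in 20 of 29 libraries with the Drd1 peak and 0 of 12 without (adjusted p = 0.0200, Fisher's exact test), although its promoter was marked in 26 of 29 and 11 of 12. A region at a TSS of Rarb, at chr14:16569933-16576144, was marked in 21 and 1 (adjusted p = 0.0290), and one in an intron of Foxp1 at chr6:99424101-99428908 in 19 and 1 (adjusted p = 0.0488). At Gad2, a region at chr2:22668393-22672586 that overlaps an exon, 46188 bases from the TSS, was marked in 17 and 0 (adjusted p = 0.0300). Neither 9-4 nor 14-4 held a peak in the 8 striatal regions or in that of Gad2, and without these libraries none of the 9 passed, with adjusted p-values between 0.0780 and 0.173. Of 13 tested regions near cortical projection neuron genes, 1, at Cux1, was called higher and 0 lower, with a median difference of −4.31 points. Near genes of the GABAergic list 15 regions were tested, and 1, that of Gad2, was called higher and 0 lower, with a median of 30.2 points. Whether the share of regions called differed between the lists was not tested. Whether these regions act on the nearest gene was not tested.

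Libraries of the other brain regions, which the rule did not use, were set beside these calls. The 261 regions called higher were marked in a median share of 48.9% in 45 striatum libraries, 6.82% in 44 hippocampus libraries and 4.88% in 41 hypothalamus libraries, against 33.3%, 20.5% and 19.5% for all 8666 regions tested. The share was larger in the striatum than in the hippocampus for 237 of the 261 (90.8%), against 65.8% of all regions tested, with a median difference of 37.3 points against 8.89. Promoters made up 10.7% of the 261 and 38.7% of all regions tested. Distal regions alone were not compared, so the part of this composition in the contrast was not tested. For the 35 regions called lower it was larger in the striatum for 13 (37.1%). Among genes, the median of the striatum share minus the hippocampus share was 11.7 points for the 164 with an unadjusted p under 0.05 upward and 4.29 points for all 4408. The Ptpn5 region, for example, was marked in 55.6% of striatum and 13.6% of hippocampus libraries, and the Rarb region in 42.2% and 0%. Libraries of PFC and of the other brain regions were made with different kits per the labels, so kit and brain region cannot be told apart here.

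**Figure D4:**
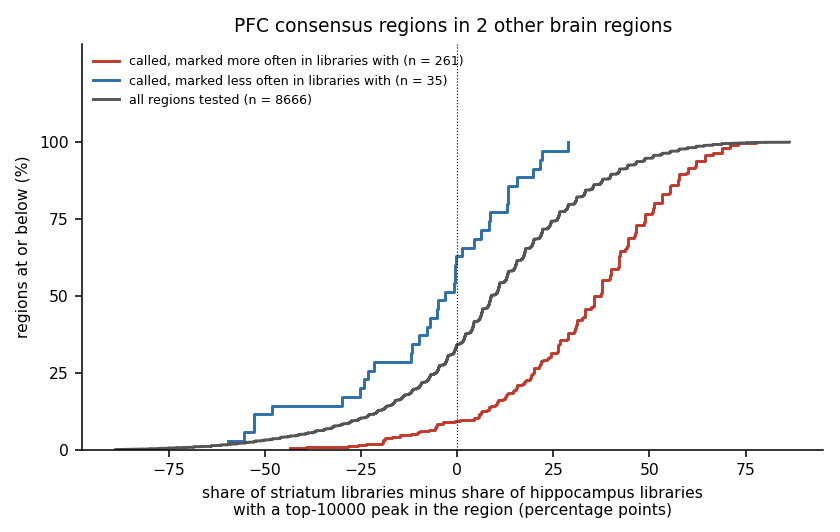
Cumulative percentage of PFC consensus regions (y axis) by the share of striatum libraries minus the share of hippocampus libraries with a top-list peak in the region (x axis, percentage points), for regions called higher in PFC libraries with the Drd1 peak (red, n = 261), called lower (blue, n = 35) and all tested (grey, n = 8666). The red curve has its median at 37.3 points and the grey curve at 8.89.

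The levels of the marker lists were set beside those of the striatum. Drd1 was marked in 14 of 45 striatum libraries (31.1%), 0 of 44 hippocampus libraries and 1 of 41 hypothalamus libraries. The shared striatal projection neuron genes averaged 63.6% ± 16.3 in the 29 PFC libraries with the peak, 37.5% ± 13.6 in the 12 without, and 44.6% ± 20.1 in the striatum. The cortical genes averaged 26.9% and 26.7% in PFC libraries with and without the peak, 12.9% ± 6.70 in the striatum and 30% ± 13.1 in the hippocampus. Lists not chosen by neuron type were also marked more in PFC than in the striatum. Pan-neuronal genes averaged 68.4% and 57.7% in PFC and 45.1% ± 17.6 in the striatum, and housekeeping genes 58.9% and 61.1% in PFC and 49.2% ± 14.9 in the striatum. The part of this in the contrasts between brain regions was not tested.

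Whether the division followed the animal was tested in the other brain regions of the same mice. In the striatum, 16 animals whose PFC library had the Drd1 peak and 10 whose PFC library did not could be compared: a Drd1 promoter peak was present in 5 of 16 and 3 of 10 striatum libraries (adjusted p = 1, Fisher's exact test, Benjamini-Hochberg over 9 tests). The striatal gene share was 36.9% ± 11.6 and 44.5% ± 26.7 there, a difference of −7.61 points (adjusted p = 1, permutation test). In the hippocampus it was 21.1% ± 7.27 in 20 animals and 18.9% ± 7.28 in 6, and in the hypothalamus 21.8% ± 7.60 in 14 and 14.6% ± 12.8 in 9 (adjusted p = 1 each, exact permutation test). The cortical gene share differed by −0.81 points in the striatum, 6.08 in the hippocampus and −1.31 in the hypothalamus (adjusted p = 1 each, exact permutation test or, in the striatum, 100000 resamples). No difference passed in another brain region of the same animals, which does not show that they were alike.

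**Figure D5:**
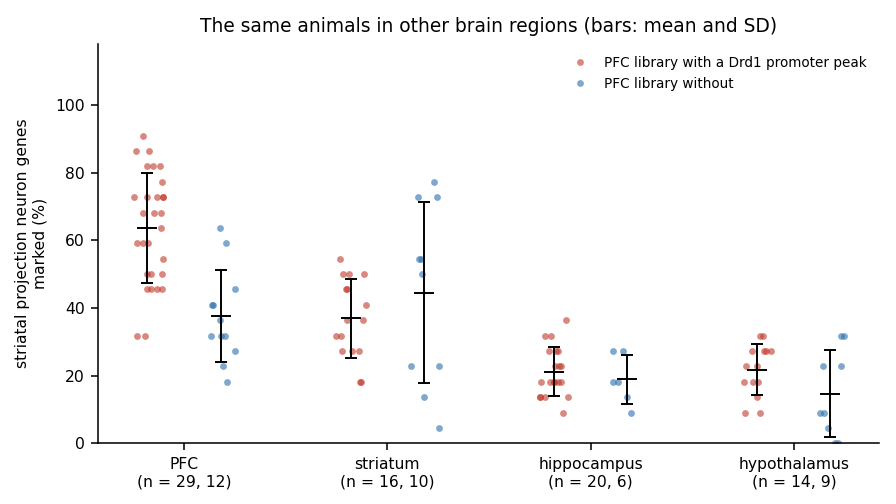
Share of the 22 shared striatal projection neuron genes marked (y axis, %) in PFC and in other brain regions of the same animals, animals whose PFC library had a Drd1 promoter peak left of those whose library did not; points are libraries, bars mean and SD, and numbers of libraries stand under each pair. In PFC the means were 63.6% and 37.5%, and in the striatum 36.9% and 44.5%.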

How the data were processed

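H3K27ac MOWChIP-seq peak lists of 174 libraries were used. Per the labels, reads were trimmed with Trim Galore 0.6.7, aligned to mm10 with Bowtie2 2.4.5, handled with SAMtools 1.15.1 and bedtools, and peaks were called per library with MACS2 2.2.7.1. The deposited −log10 p ranked the peaks of a list, the deposited fold enrichment (a ratio over local background) ranked them in 1 alternative, and the deposited score was not used. The authors' PFC consensus regions, made with DiffBind 3.10.1, give positions only. The lists hold no counts, so presence in lists of 10000 peaks was compared.

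TSS were those of protein-coding transcripts in GENCODE M21. Genes and regions (overlap of at least 1 bp) marked in 20% to 80% of libraries were compared by two-sided Fisher's exact tests with Benjamini-Hochberg adjustment (SciPy 1.17.1) and called at an adjusted p under 0.05. The exact and limma 3.58.1 fits were tested on simulated data. Alternatives were list lengths of 5000 and 11000, another ranking, windows of 500 bp and 2 kb, strata, and libraries left out. Genes to be named were the called genes, the 6 distal regions called in each direction with the largest difference, and list members; Htr1b, Camk4, Cntn2, Kcnq5 and Agt were added after their values were seen, as were the stretches of sequence shown. Members and lists were chosen with earlier results of these data known. In the hippocampus 2 libraries with identical lists counted as 1. Each group is of separate animals, several of which share a litter number, so p-values that ignore it may be too small.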

Additional observations from a re-analysis of the deposited data

Results flagged for a closer look

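Among 18 sets of values in the MOR-SAL and SAL-SAL libraries, 2 held a library far from the others of its group, and chance gives about 1 in 20 sets. Both were the SAL-SAL female library 9-4, which had no Drd1 promoter peak. It marked 100% of the oligodendrocyte genes and 23.1% of the pan-neuronal genes.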

How the results depend on the processing

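The count of called genes (2) and of called regions (296) changed under most alternatives, and the cause was not tested. With 5000 peaks per list 0 genes and 134 regions were called, with 11000 peaks 597 regions, and ranked by fold enrichment 1 gene and 115 regions. Stratified by sex 0 genes and 190 regions were called, by treatment group 1 and 8, by the number of peaks 0 and 171, and by flow cell 87 regions. With the litter number as a replicate block, in which only numbers holding both kinds of library count, 0 genes and 0 regions were called. A window of 500 bp, a Drd1 peak anywhere in the full list, and another order of ties each called 0 genes. With MOR-SAL 13-1 kept in, 495 regions were called. Without the 3 libraries just outside the limit 4 genes were called, without the 2 with oligodendrocyte genes 0 genes and 0 regions, and without MOR-LPS 12-2 153 regions. By limma 31 genes were called, or 23 with the number of peaks as a term, and without the 2 libraries with oligodendrocyte genes 34 and 18. Without any 1 library between 2 and 4 genes and between 10 and 407 regions were called. The alternatives on flow cell, ties, libraries just outside the limit, oligodendrocyte genes and conflicting names were chosen after seeing the data.

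The striatal gene share kept its direction in all alternatives run, with differences between 11.2 points (window of 500 bp) and 29.8 points, and between 24.4 and 28.5 points without any 1 library. Directions that turned had no passing test. With 5000 peaks the striatum of the same animals differed by 1.85 points in cortical genes and by −1.82 points in Drd1. With a window of 500 bp the difference was −13.3 points for Foxp2, −2.22 for Syndig1l and −1.11 for Gad1, and 3.11 for perinatal morphine minus saline. With a window of 2 kb LPS minus saline was 1.00 point. With Drd1 called in the full list it was −3.51 points for Gad1 and −19.3 for Gad2. Only 12 libraries lacked the Drd1 peak, and the lists give no read depth, so small differences were not detectable.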

Other observations

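The lists of thalamic, septal and hypothalamic neurons were rarely marked in either kind of PFC library. Thalamic genes averaged 1.53% in libraries with the Drd1 peak and 1.85% in those without, septal genes 2.46% and 2.38%, and hypothalamic genes 1.44% and 2.78%. Hippocampal neuron genes averaged 21.5% and 25%, mostly through Zbtb20, marked in 25 of 29 libraries with the peak and 10 of 12 without, and Ociad2, marked in 21 and 9. Slc17a6, which encodes a vesicular glutamate transporter, was marked in none of the 41. Astrocyte genes averaged 1.88% and 5.30%, with Agt, the angiotensinogen gene, marked in 0 of 29 libraries with the peak and 3 of 12 without. Cntn2, which encodes an axonal adhesion protein, was marked in 4 of 29 and 10 of 12 (adjusted p = 0.0672, Fisher's exact test) and passed when strata followed the flow cell (adjusted p = 0.0316). Kcnq5, a potassium channel gene, was marked in 23 and 3.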
